A study of Mus musculus with 14 samples.

Results

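Cells of the subependymal zone (SEZ) sorted for both green fluorescent protein (GFP) and prominin were compared with SEZ cells sorted for CD24. The 6 arrays of these groups, chosen by their sample titles from 14 arrays in all, comprised 4 of the double-positive sort (SEZ_GFPprom) and 2 of the CD24 sort (SEZ_CD24). All the mice were 8-week-old hGFAP-eGFP animals, a line in which the human GFAP promoter drives GFP, and no group carried a further allele or received an agent according to the labels. The double-positive cells were selected by fluorescence-activated sorting for GFP and prominin (Prom1), the other cells for CD24 alone, so the CD24 sort could hold GFP-positive cells as well. The labels call the first group neural stem and the second ependymal. The other 3 groups, SEZ_GFP and SEZ_Prom with 2 arrays each and DIEC_GFP of the diencephalon with 4, entered the fit only to estimate the spread between arrays. The arrays are labelled as biological replicates, without a word on separate animals or pools, so p-values here reflect the spread among arrays only. With 4 and 2 arrays that spread is known imprecisely.

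The SEZ lines the lateral ventricle of the adult brain. Its stem cells are glia that contact the ventricle with a single primary cilium and carry GFAP and prominin. They give rise, through dividing transit amplifying cells, to neuroblasts that migrate to the olfactory bulb, and the ventricle itself is covered by ependymal cells, whose many motile cilia move the cerebrospinal fluid. CD24 is a small surface glycoprotein found on neuroblasts and on ependymal cells, and also on blood cells.

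A difference is the SEZ_GFPprom mean minus the SEZ_CD24 mean on the log2 scale of the deposited intensities, with its standard error (SE), and a gene was called at an adjusted p under 0.05. Each gene was read from its brightest probe set, so levels are compared between arrays. Genes are set side by side only in the sums and means of lists, and bright probe sets weigh most in the sums. The SEZ_CD24 arrays correlated with each other at r = 0.952 across genes, the SEZ_GFPprom arrays at r = 0.943 to 0.966, and arrays of the 2 groups with each other at r = 0.876 to 0.900. The log2 ratio of 3' to 5' signal of the control transcripts, which rises as RNA is degraded or amplified from its end, was 4.94 ± 0.18 (SD, n = 4) in SEZ_GFPprom and 5.15 ± 0.29 (n = 2) in SEZ_CD24. Between 25.4% and 25.7% of probe sets per array stood at an intensity of 10 or less, and differences that rest on such values are also given with values under 10 set to 10. Adjusted p-values come from limma, and where an alternative setting ended the call of a named gene, the adjusted p under it follows. A gene list's count of higher or lower genes, where it was 4 or more, is given again where leaving out an array, another scaling, setting values under 10 to 10, removing shared-sequence probe sets or fitting the 2 groups alone moved it by over 1.5 times.

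Of 18193 genes, 2496 (13.7%) passed the threshold, 1633 (8.98%) higher in SEZ_GFPprom and 863 (4.74%) lower. With a change of at least 2-fold these were 1471 (8.09%) and 738 (4.06%). Every SEZ_GFPprom array lay above both SEZ_CD24 arrays in 20.8% of all genes, and below both in 13.0%. The median of all genes was 0.10, and 58.5% lay above 0. Higher genes made up 65.4% of the calls, 53.8% after quantile normalization and 35.4% after setting the array medians equal, a scaling that moved the median of all genes to -0.12. Without SEZ_CD24 replicate 1 the calls numbered 1858, and without replicate 2 they numbered 1102.

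Among the 12 genes with the greatest excess in the double-positive sort, several encode parts of motile cilia. Ccdc153, a coiled-coil protein used as an ependymal marker, had intensities of 8308, 5670, 4501 and 6347 in the SEZ_GFPprom arrays and 94 and 45 in the SEZ_CD24 arrays, a difference of 6.54 (SE 0.42, 93.1-fold, adjusted p = 9.07e-06). Dynlrb2, a dynein light chain, stood at 2883, 2175, 1783 and 3100 in the SEZ_GFPprom arrays and 42 and 21 in the SEZ_CD24 arrays (6.35, SE 0.59, adjusted p = 5.01e-05). Iqca, a protein of the complex that regulates axonemal dynein, stood at 1982, 1253, 899 and 1952 in the SEZ_GFPprom arrays and 14 and 44 in the SEZ_CD24 arrays (5.86, SE 0.47, adjusted p = 2.28e-05). The 12 were picked among called genes whose groups did not overlap, so that separation was set by the choice. Fam183b (6.37), Fam166c (6.07), Ttc25 (5.79), which docks outer dynein arms, Frmpd2 (5.62) and Tmem212 (5.58) followed. Ttc29 (5.70), Med9os (5.69) and Adgb (5.68) stood at 10 or less in the SEZ_CD24 arrays, and with values under 10 set to 10 their differences were 5.44, 4.66 and 4.36. The remaining gene of the 12 was Ifitm3, an interferon-induced membrane protein that restricts virus entry, at 2261, 1367, 1539 and 2501 in the SEZ_GFPprom arrays and 71 and 17 in the SEZ_CD24 arrays (5.74, SE 0.58, adjusted p = 8.31e-05).

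The 12 greatest deficits included genes of heme synthesis in red cell precursors, receptors of microglia and an antiviral gene. Tent5c, a poly(A) polymerase, fell from 9236 and 4766 in the SEZ_CD24 arrays to 117, 41, 12 and 58 in the SEZ_GFPprom arrays (-7.28, SE 0.73, adjusted p = 7.49e-05). Alas2, the erythroid enzyme of the first step of heme synthesis, fell from 8741 and 3442 to 45, 22, 36 and 53 (-7.21, SE 0.49, adjusted p = 9.26e-06). These 12 too were picked among called genes whose groups did not overlap. In both Tent5c and Alas2, SEZ_CD24 replicate 1 was the brighter of its pair. Slc25a37, the iron carrier mitoferrin 1, differed by -4.43 (adjusted p = 1.67e-05). Fech, which inserts iron into heme, differed by -4.15 (adjusted p = 4.88e-05). Once probe sets that share sequence between transcripts were left out, its brightest remaining probe set differed by -0.39 (adjusted p = 0.697). A dimmer remaining one differed by -4.83 (adjusted p = 0.000448 in limma's fit of all probe sets). Aldh1a1, a retinaldehyde dehydrogenase, stood at 9, 11, 9 and 23 in the SEZ_GFPprom arrays and 638 and 248 in the SEZ_CD24 arrays, a difference of -5.06 (-4.98 with values under 10 set to 10). Rsad2, the antiviral protein viperin, stood at 199, 283, 110 and 256 in the SEZ_GFPprom arrays and 8951 and 2667 in the SEZ_CD24 arrays (-4.61, adjusted p = 0.000111).

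Of the remaining 6 genes of this group, Gpr34 (-4.45, or -3.96 with values under 10 set to 10), P2ry13 (-4.07) and P2ry12 (-3.93) encode receptors known from microglia. The others were Dusp6 (-4.16), a phosphatase of ERK, Tnfaip3 (-4.11), an inhibitor of NF-kB signalling, and the chemokine receptor Ccr6 (-3.85). The calls of these 3 and of P2ry12 did not hold throughout. They were lost in P2ry12 (adjusted p = 0.0145, 0.103 without SEZ_CD24 replicate 1, 0.0578 without SEZ_CD24 replicate 2 and 0.0536 in a fit of the 2 groups alone), in Dusp6 (adjusted p = 0.0249, 0.116 without SEZ_CD24 replicate 1, 0.124 without SEZ_CD24 replicate 2 and 0.0554 without SEZ_GFPprom replicate 4), in Tnfaip3 (adjusted p = 0.00601, 0.0681 without SEZ_CD24 replicate 1 and 0.0519 in a fit of the 2 groups alone) and in Ccr6 (adjusted p = 0.0184, 0.123 without SEZ_CD24 replicate 1 and 0.0647 without SEZ_CD24 replicate 2).

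**Figure D1:**
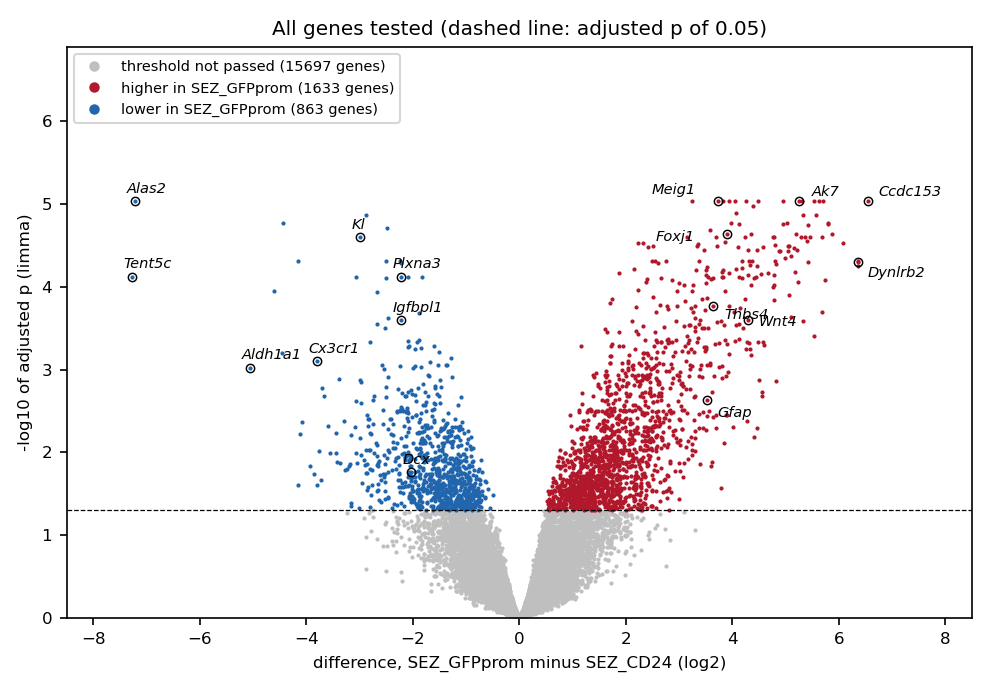
Each point is a gene, placed by its log2 difference (SEZ_GFPprom minus SEZ_CD24) and by -log10 of limma's adjusted p. The 1633 genes called higher are red, the 863 called lower are blue, and circles mark genes named in the text, from Ccdc153 at 6.54 on the right to Tent5c at -7.28 on the left.

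The sorted proteins' own transcripts follow. Gfap, the glial filament protein whose promoter drives the GFP, stood at 845, 588, 142 and 366 in the SEZ_GFPprom arrays and 36 and 34 in the SEZ_CD24 arrays, and the groups did not overlap (3.52, SE 0.58, adjusted p = 0.00235, or 0.128 with shared-sequence probe sets removed). Prom1 stood at 426, 664, 441 and 514 in the SEZ_GFPprom arrays and 85 and 380 in the SEZ_CD24 arrays, a difference of 1.49 (95% interval 0.46 to 2.51) that did not pass (adjusted p = 0.0565). SEZ_CD24 replicate 2 was close to the double-positive arrays in Prom1 and replicate 1 was not, and without replicate 2 the difference was 2.57 (adjusted p = 0.00211). Cd24a, which encodes CD24, stood at 1641, 1117, 990 and 1254 in the SEZ_GFPprom arrays and 2160 and 3740 in the SEZ_CD24 arrays. Both CD24 arrays lay above all the double-positive ones, and the difference of -1.21 (95% interval -2.08 to -0.35) did not pass (adjusted p = 0.065). A dimmer Cd24a probe set differed by -1.51 (adjusted p = 0.0281 in limma's fit of all probe sets). The dimmest went the other way, by 0.52 (adjusted p = 0.402 in the same fit).

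**Figure D2:**
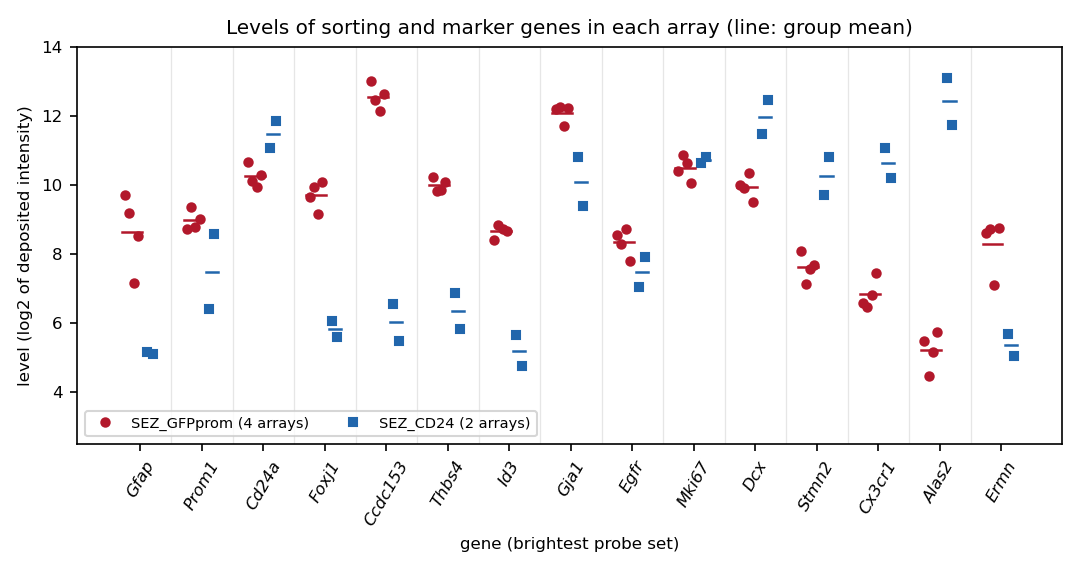
Level of 15 genes in each array (vertical axis, log2 of the deposited intensity), with the 4 SEZ_GFPprom arrays as red circles, the 2 SEZ_CD24 arrays as blue squares and a line at each group mean. Ccdc153, Foxj1, Thbs4, Id3 and Gja1 were higher in every double-positive array, Dcx, Stmn2, Cx3cr1 and Alas2 lower in every one, and the groups overlapped in Egfr and Mki67. Of all genes tested, 20.8% were higher in every double-positive array and 13.0% lower in every one.

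The labels call the CD24 sort ependymal, and its ependymal transcripts went against that name. Read from their brightest probe sets, Gfap, Prom1 and Cd24a lay on the side of the markers each group was sorted for. Of these only Gfap passed, and the dimmest Cd24a probe set went the other way. Whether the arrays or the gate differed from what the labels say cannot be settled from these values, so each direction here is between the groups as labelled. Of 22 ependymal markers, 20 were higher in the double-positive sort, where 8.98% of all genes were, and none was lower (1 with equal array medians), with a median difference of 4.61 against 0.10 over all genes. The exceptions were Nnat and Cd24a itself, which did not pass. The summed intensity of these markers was 25827 to 44456 in the SEZ_GFPprom arrays and 5082 and 4981 in SEZ_CD24 replicates 1 and 2. Their mean level was 9.86 (log2) in SEZ_GFPprom and 5.70 in SEZ_CD24, against 6.54 in SEZ_GFP, 6.15 in SEZ_Prom and 8.31 in DIEC_GFP. The group labelled ependymal thus had the lowest mean of the 5 and the group labelled neural stem the highest. Without SEZ_CD24 replicate 1 or 2 the count was 20 and 19. In bulk samples, fewer cells of a type and less RNA per cell cannot be told apart.

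Foxj1, the transcription factor that switches on the genes of motile cilia, stood at 799, 975, 575 and 1086 in the SEZ_GFPprom arrays and 66 and 48 in the SEZ_CD24 arrays (3.89, SE 0.31, adjusted p = 2.31e-05). Meig1 (3.73), the adenylate kinase Ak7 (5.26) and the membrane protein Tm4sf1 (5.02) were higher as well. In each of them every double-positive array lay above both CD24 arrays, as in 20.8% of all genes. Among 17 regulators of multiciliated cells, 5 were higher and 1 lower (29.4% and 5.88% against 8.98% and 4.74% of all genes, median 0.42). Besides Foxj1 these were Rfx4 (3.25, adjusted p = 0.000113), Deup1, a protein of the structures that multiply centrioles (3.15, adjusted p = 0.000389), the p53 relative Trp73 (1.41, adjusted p = 0.00352) and Myb (2.19, adjusted p = 0.019, 0.129 without SEZ_CD24 replicate 1, 0.0611 without SEZ_CD24 replicate 2 and 0.139 with shared-sequence probe sets removed). Rfx7 was lower (-2.60, adjusted p = 0.0214, 0.0813 without SEZ_CD24 replicate 1, 0.138 without SEZ_CD24 replicate 2 and 0.102 in a fit of the 2 groups alone). Rfx3, a factor that binds the promoters of cilium genes, stood at 76, 96, 93 and 115 in the SEZ_GFPprom arrays and 111 and 105 in the SEZ_CD24 arrays, with overlapping groups (-0.20, 95% interval -0.73 to 0.33, adjusted p = 0.648).

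The shaft of a motile cilium, the axoneme, carries dynein arms that bend it, radial spokes and a central pair of microtubules. Of 29 genes of the dynein arms and their assembly, 22 were higher and none lower (median 2.96), and 19 and 14 were higher without SEZ_CD24 replicate 1 or 2. Armc4, needed to dock the outer arms, stood at 457, 622, 580 and 704 in the SEZ_GFPprom arrays and 18 and 20 in the SEZ_CD24 arrays (4.94, SE 0.28, adjusted p = 9.07e-06). Drc1 (3.97) of the dynein regulatory complex, the heavy chain Dnah9 (3.70) and the intermediate chain Dnaic1 (3.52) were also higher. Of 45 genes of the radial spokes, the central pair and the tektins, 38 were higher and none lower (median 3.87), and 33 and 31 were higher without SEZ_CD24 replicate 1 or 2. Cfap161, a protein inside the doublet microtubules, stood at 943, 608, 825 and 1053 in the SEZ_GFPprom arrays and 25 and 13 in the SEZ_CD24 arrays (5.54, SE 0.32, adjusted p = 9.07e-06). Capsl (5.33), Cfap65 (5.20), Cfap54 (4.27) and Iqcg (4.08, or 3.82 with values under 10 set to 10) were higher as well.

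Intraflagellar transport, which carries cargo along primary and motile cilia alike, showed smaller differences. Of 40 genes of transport and of the basal body, 20 were higher and none lower (median 1.22). That count was 12 with equal array medians or in a fit of the 2 groups alone, 8 without SEZ_CD24 replicate 1 and 9 without SEZ_CD24 replicate 2. The transition zone protein B9d1 (3.50, adjusted p = 8.86e-05) and the train subunits Ift74 (2.80), Ift172 (2.33), Ift27 (2.32) and Ift57 (1.69) were higher, and Ift22 too (2.31, adjusted p = 0.0034, 0.055 without SEZ_CD24 replicate 2). The order of the list medians, from transport through the dynein arms to the spokes, is a description and was not tested.

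**Figure D3:**
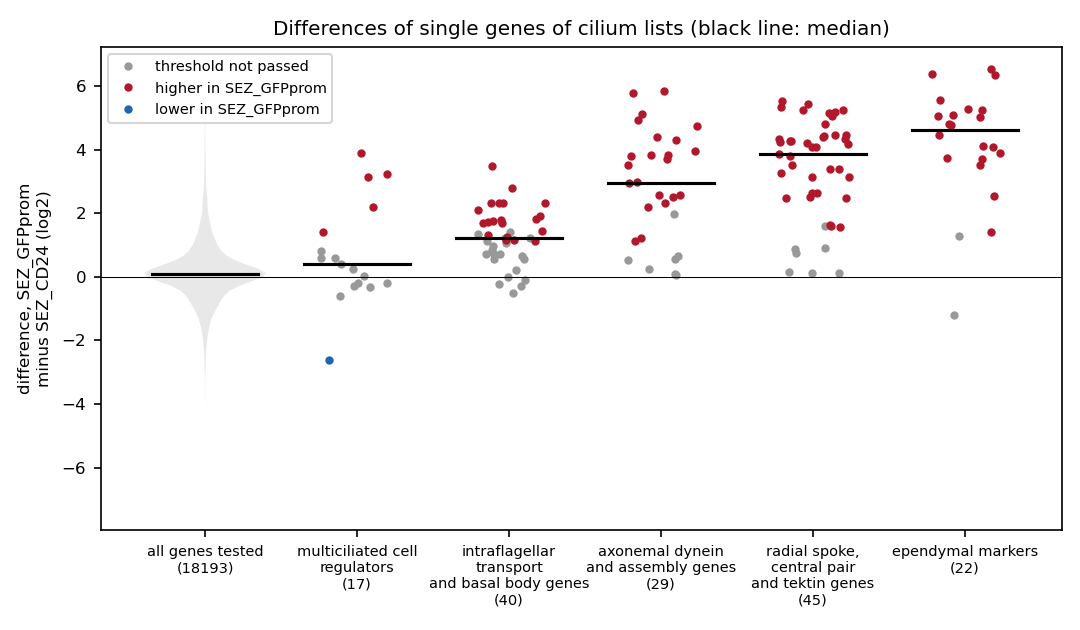
Log2 differences (SEZ_GFPprom minus SEZ_CD24) of single genes in 5 cilium lists beside the distribution of all 18193 genes (grey shape), with a black line at each median. The medians were 0.42 for the regulators, 1.22 for transport and the basal body, 2.96 for the dynein arms, 3.87 for spokes, central pair and tektins and 4.61 for the ependymal markers.

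Because the axoneme genes differed together, their promoters were searched for the X-box, the sequence that RFX factors bind upstream of cilium genes. Its short core GTTGCC, on either strand in the 250 bases before the start site, was present in 16 of 60 axonemal dynein, spoke, central pair and tektin genes with a RefSeq promoter (26.7%), against 12.3% of 14453 genes of the array with a promoter. The longer form GTTNCCNNG was found in 38.3% against 17.6%, and the full palindrome GTTNCCNNGGNAAC, which contains it, in 2 of 60 (3.33%) against 0.581%. The forkhead motif GTAAACA was found in 3 of 60 (5%) against 3.04%, and the looser form TGTTTNC in 30% against 16.8%. In other lists GTTGCC was found in 3 of 16 neuroblast marker promoters (18.8%) and in 0 of 12 microglia ones, and TGTTTNC in 4 of 12 microglia ones (33.3%). Motifs known for other factors were found in shares of 3.33% against 6.51% (GATAAG), 10% against 8.79% (AGATAA), 25% against 24.4% (GGAAGT), 10% against 14.1% (TTTGAA) and 0 of 60 against 0.775% (TTTGGCGC). The windows below, from RefSeq on GRCm38.p6, are 120 bases around the matches in 5 of the genes named above, chosen because they hold one, to show where it lies. They are written 5' to 3' along the gene with each match in capitals, and a match is no evidence of binding. Cfap161 and Iqca are among the 60 genes counted above. Ccdc153, Dynlrb2 and Fam183b come from the ependymal markers and are not.
Ccdc153 (chr9:44240468-44240587, plus strand): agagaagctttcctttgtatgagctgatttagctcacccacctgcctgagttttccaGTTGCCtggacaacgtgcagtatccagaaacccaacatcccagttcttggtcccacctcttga
Dynlrb2 (chr8:116504895-116505014, plus strand): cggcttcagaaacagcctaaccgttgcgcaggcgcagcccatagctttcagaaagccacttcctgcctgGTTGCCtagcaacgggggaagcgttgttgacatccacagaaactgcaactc
Fam183b (chr11:58801961-58802080, minus strand): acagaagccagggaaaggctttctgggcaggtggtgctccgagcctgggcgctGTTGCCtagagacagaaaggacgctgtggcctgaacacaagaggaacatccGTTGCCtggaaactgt
Cfap161 (chr7:83794840-83794959, minus strand): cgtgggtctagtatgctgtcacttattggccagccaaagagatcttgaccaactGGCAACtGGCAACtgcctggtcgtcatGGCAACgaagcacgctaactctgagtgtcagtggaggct
Iqca (chr1:90153470-90153589, minus strand): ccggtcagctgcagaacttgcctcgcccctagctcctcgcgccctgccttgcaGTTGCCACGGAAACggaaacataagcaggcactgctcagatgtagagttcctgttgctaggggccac
In Ccdc153 the core ended 146 bases before the start site, in Dynlrb2 45 bases before it, and in Fam183b the nearer of 2 matches ended 10 bases before it. Cfap161 held 3 matches on the other strand, the nearest 33 bases before the start, and Iqca held the full palindrome 86 bases before it.

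Glial and stem cell genes were also higher in the double-positive sort. Of 30 astrocyte markers, 17 were higher and none lower (median 1.44). The count was 8 in a fit of the 2 groups alone and 5 without SEZ_CD24 replicate 2, against 20 without replicate 1. Their summed intensity was 46833 to 52366 in the SEZ_GFPprom arrays and 31978 and 10941 in SEZ_CD24 replicates 1 and 2, so replicate 1 lay between replicate 2 and the double-positive arrays. Slc25a18, a mitochondrial glutamate carrier, stood at 532, 392, 338 and 589 in the SEZ_GFPprom arrays and 60 and 36 in the SEZ_CD24 arrays (3.28, SE 0.44, adjusted p = 0.000609). The gap junction protein Gja1 stood at 4718, 4912, 3340 and 4787 in the SEZ_GFPprom arrays and 1795 and 667 in the SEZ_CD24 arrays (2.00, SE 0.32, adjusted p = 0.00194). Sox9, a glial transcription factor, differed by 1.42 (adjusted p = 0.00329), the secreted chaperone Clu by 1.71 (adjusted p = 0.00328, 0.0507 in a fit of the 2 groups alone) and the protease Htra1 by 1.96 (adjusted p = 0.00907, 0.0798 without SEZ_CD24 replicate 2 and 0.078 in a fit of the 2 groups alone).

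Of 27 stem cell and radial glia genes, 13 were higher and none lower (median 1.33). That number was 7 in a fit of the 2 groups alone and 8 without SEZ_CD24 replicate 2. Thbs4, a secreted thrombospondin made by SEZ astrocytes, stood at 1212, 911, 934 and 1077 in the SEZ_GFPprom arrays and 118 and 57 in the SEZ_CD24 arrays (3.65, SE 0.41, adjusted p = 0.000172). Id3, an inhibitor of differentiation factors and a target of BMP signals, stood at 342, 461, 419 and 407 in the SEZ_GFPprom arrays and 50 and 27 in the SEZ_CD24 arrays (3.46, SE 0.30, adjusted p = 3.55e-05). In both genes every double-positive array was brighter than either CD24 array. The receptor phosphatase Ptprz1 (1.63), the receptor Notch2 (2.06) and Veph1 (2.86, or 2.42 with values under 10 set to 10) were higher too. Nr2e1, the nuclear receptor of adult stem cells, stood at 102, 61, 54 and 40 in the SEZ_GFPprom arrays and 36 and 28 in the SEZ_CD24 arrays and did not pass (0.93, 95% interval -0.16 to 2.02, adjusted p = 0.251), while a probe set of similar brightness was higher by 1.99 (adjusted p = 0.00141 in limma's fit of all probe sets).

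Of 20 transporters and channels of glia, 7 were higher and none lower (median 0.94, or 0.38 without SEZ_CD24 replicate 2). Other settings gave 5 higher and 1 lower with equal array medians, 1 higher and 0 lower without SEZ_CD24 replicate 2, 4 higher and 0 lower without SEZ_GFPprom replicate 2 and 4 higher and 1 lower without SEZ_GFPprom replicate 4. The water channel Aqp4 differed by 2.18 (adjusted p = 0.00991, 0.143 without SEZ_CD24 replicate 2 and 0.101 for the mean of its probe sets), the amino acid transporter Slc38a3 by 2.75 (adjusted p = 0.00343, 0.051 without SEZ_CD24 replicate 2) and the glutamate transporter Slc1a3 by 1.43 (adjusted p = 0.0255, 0.316 without SEZ_CD24 replicate 2 and up to 0.107 under 6 other alternatives (among them leaving out SEZ_GFPprom replicate 2 or SEZ_GFPprom replicate 4)). Slc15a2, a peptide transporter, differed by 3.53 (adjusted p = 0.000869), but by -0.41 (adjusted p = 0.542) with shared-sequence probe sets removed. A dimmer probe set kept by that removal was higher by 2.21 (adjusted p = 0.00539 in limma's fit of all probe sets).

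Neuroblast genes were lower in the double-positive sort. Of 28 neuroblast markers, 19 were lower, where 4.74% of all genes were, and none was higher (median -1.78). Their summed intensity was 24125 to 32093 in the SEZ_GFPprom arrays and 53735 and 82807 in SEZ_CD24 replicates 1 and 2, and in 25 of the 28 genes both CD24 arrays lay above every double-positive array, as they did in 13.0% of all genes. The count was 12 in a fit of the 2 groups alone, 3 without SEZ_CD24 replicate 2 and 11 without SEZ_GFPprom replicate 4, and 16 without SEZ_CD24 replicate 1. Replicate 2 was the CD24 array with the brighter neuroblast genes. Igfbpl1, a secreted protein of immature neurons, stood at 162, 165, 141 and 104 in the SEZ_GFPprom arrays and 522 and 822 in the SEZ_CD24 arrays (-2.22, SE 0.26, adjusted p = 0.000253). The cadherin Celsr3 stood at 68, 103, 55 and 65 in the SEZ_GFPprom arrays and 301 and 592 in the SEZ_CD24 arrays (-2.58, SE 0.36, adjusted p = 0.000892). Nrxn3, a synaptic adhesion protein, differed by -2.50 (adjusted p = 0.00212). These 3 kept the call in each of the 28 alternatives.

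Dcx, a microtubule protein of migrating neurons, stood at 1023, 970, 1307 and 723 in the SEZ_GFPprom arrays and 2872 and 5645 in the SEZ_CD24 arrays (-2.03, adjusted p = 0.0173, 0.192 without SEZ_CD24 replicate 2 and 0.0526 for the mean of its probe sets). The tubulin Tubb3 differed by -2.20 (adjusted p = 0.0105, 0.133 without SEZ_CD24 replicate 2 and 0.0625 in a fit of the 2 groups alone), Stmn2, which destabilizes microtubules, by -2.63 (adjusted p = 0.0128, 0.151 without SEZ_CD24 replicate 2) and the adhesion molecule Ncam1 by -1.48 (adjusted p = 0.00507, 0.0792 without SEZ_CD24 replicate 2). Each of these was lower in every double-positive array than in either CD24 array, and each lost its call without SEZ_CD24 replicate 2. Of 18 neurogenic transcription factors, 7 were lower and none higher (median -1.0), where 4.74% of all genes were lower. The count was 4 with values under 10 set to 10 or without SEZ_GFP replicate 1 or 2 or SEZ_GFPprom replicate 1 or 2, 2 in a fit of the 2 groups alone, 0 without SEZ_CD24 replicate 2 and 3 without SEZ_GFPprom replicate 4. The homeobox gene Dlx5 differed by -2.37 (adjusted p = 0.00742, 0.113 without SEZ_CD24 replicate 2 and 0.0619 in a fit of the 2 groups alone), Dlx2 by -2.14 (adjusted p = 0.0115, 0.146 without SEZ_CD24 replicate 2) and Pbx3 by -1.58 (adjusted p = 0.0117, 0.141 without SEZ_CD24 replicate 2 and 0.0662 in a fit of the 2 groups alone). Dlx1 stood at 510, 582, 1140 and 420 in the SEZ_GFPprom arrays and 1890 and 3993 in the SEZ_CD24 arrays and did not pass (-2.16, 95% interval -3.78 to -0.55, adjusted p = 0.0762).

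Among 39 axon guidance genes, 4 were higher (10.3%, near the 8.98% of all genes) and 5 lower (12.8%, against 4.74%; median 0.16, or -0.10 with equal array medians). The counts were 2 higher and 5 lower with equal array medians and 3 higher and 3 lower without SEZ_GFPprom replicate 4. The semaphorin receptor Plxna3 stood at 93, 123, 122 and 110 in the SEZ_GFPprom arrays and 442 and 612 in the SEZ_CD24 arrays (-2.22, SE 0.22, adjusted p = 7.49e-05), and Plxna2 (-2.13) and the ligand Efnb2 (-1.80) were lower too. The ephrin receptor Epha5 was higher, at 279, 247, 207 and 251 in the SEZ_GFPprom arrays and 21 and 22 in the SEZ_CD24 arrays (3.51, SE 0.34, adjusted p = 6.31e-05). Of 17 markers of mature neurons, 1 was higher (5.88%, against 8.98% of all genes) and none was lower. The higher one was the calcium-binding protein Pvalb, at 348, 294, 300 and 372 in the SEZ_GFPprom arrays and 65 and 41 in the SEZ_CD24 arrays (2.66, adjusted p = 0.000468).

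Few genes of dividing cells passed the test. Of 33 DNA replication genes none passed limma's test, and 1 had an unadjusted p under 0.05 (median -0.03). Under each of the 28 alternatives at most 1 was higher and 0 were lower. The replication genes' mean log2 level was 7.72 to 8.33 in the SEZ_GFPprom arrays and 7.71 and 8.55 in SEZ_CD24 replicates 1 and 2. With an array left out their median difference ran from -0.50 to 0.23. Of 34 mitosis genes 2 were higher (5.88%, against 8.98% of all genes) and none lower. Their median was -0.02, and -0.35 to 0.31 with an array left out. Nuf2, a kinetochore protein, stood at 1028, 895, 824 and 1399 in the SEZ_GFPprom arrays and 158 and 145 in the SEZ_CD24 arrays (2.75, SE 0.25, adjusted p = 4.88e-05), and Hmgb2 differed by 0.95 (adjusted p = 0.0243, 0.23 without SEZ_CD24 replicate 2 and up to 0.34 under 6 other alternatives (among them leaving out SEZ_GFPprom replicate 2 or SEZ_GFPprom replicate 4)). The proliferation marker Mki67 stood at 1344, 1859, 1607 and 1058 in the SEZ_GFPprom arrays and 1606 and 1796 in the SEZ_CD24 arrays, with overlapping groups (-0.24, 95% interval -1.65 to 1.16, adjusted p = 0.853). Top2a differed by -0.14 (-1.23 to 0.95) and Mcm6 by 0.32 (-0.26 to 0.90), and neither passed, although a dim probe set of Top2a was higher by 1.79 (adjusted p = 0.0275 in limma's fit of all probe sets).

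Of 15 genes of activated stem and transit amplifying cells, only Dlx2 passed, with Egfr, the receptor of the growth factor EGF, at 373, 313, 420 and 224 in the SEZ_GFPprom arrays and 132 and 243 in the SEZ_CD24 arrays (0.85, 95% interval -0.03 to 1.73, adjusted p = 0.191). The list's median was -0.12. Its 1 called gene, a lower one, made 6.67%, against 4.74% of all genes lower. For the 1 lower G1 gene that follows, the share was 5.26%. Of 19 G1 cyclins and cyclin kinase inhibitors only the inhibitor Cdkn1c passed, lower at -1.82 (adjusted p = 0.0268, 0.074 without SEZ_CD24 replicate 1, 0.192 without SEZ_CD24 replicate 2 and up to 0.121 under 5 other alternatives (among them leaving out SEZ_GFPprom replicate 1 or SEZ_GFPprom replicate 4)).

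Markers of some further cell types differed between the sorts. Of 15 microglia markers 6 were lower and none higher (median -2.36). The number was 10 with equal array medians and 1 without SEZ_CD24 replicate 1. Their summed intensity was 2557 to 5034 in the SEZ_GFPprom arrays and 32207 and 14941 in SEZ_CD24 replicates 1 and 2, the highest in SEZ_CD24 replicate 1. Cx3cr1, the fractalkine receptor, stood at 96, 89, 112 and 174 in the SEZ_GFPprom arrays and 2139 and 1170 in the SEZ_CD24 arrays (-3.80, SE 0.52, adjusted p = 0.000793). The protease Ctss differed by -2.36 (adjusted p = 0.00623, 0.0657 without SEZ_CD24 replicate 1), Csf1r, the receptor that keeps microglia alive, by -2.26 (adjusted p = 0.0183, 0.117 without SEZ_CD24 replicate 1 and 0.0708 without SEZ_CD24 replicate 2), and the complement subunit C1qc by -3.27 (adjusted p = 0.0165, 0.145 without SEZ_CD24 replicate 1).

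Of 4 erythroid genes 2 were lower, Alas2 as given above and Slc4a1, the anion exchanger of red cells, at 14, 13, 15 and 47 in the SEZ_GFPprom arrays and 269 and 58 in the SEZ_CD24 arrays (-2.72, adjusted p = 0.0101, 0.106 without SEZ_CD24 replicate 1 and 0.0963 in a fit of the 2 groups alone). The list's summed intensity was 66 to 124 in the SEZ_GFPprom arrays and 9037 and 3522 in SEZ_CD24 replicates 1 and 2. Most of the sum in both SEZ_CD24 arrays was Alas2 alone. The alpha globin gene Hba-a1 stood at 10, 13, 9 and 8 in the SEZ_GFPprom arrays and 10 and 9 in the SEZ_CD24 arrays, near the background in both groups. That value comes from its only probe set with 1 symbol, as probe sets with several symbols were left out. Of the list's 8 genes, 4 were not analysed, so globin RNA at large was not judged here. Of 11 choroid plexus markers 6 were lower and 1 higher (median -1.19), with sums of 1445 to 10410 in the SEZ_GFPprom arrays and 15746 and 9637 in SEZ_CD24 replicates 1 and 2. The counts were 1 higher and 3 lower in a fit of the 2 groups alone or without SEZ_CD24 replicate 1 or SEZ_GFPprom replicate 2 or 4 and 0 higher and 3 lower without SEZ_CD24 replicate 2. Kl differed by -3.0 (-2.43 with values under 10 set to 10), Kcne2 by -2.24 (-1.91) and Calml4, the higher one, by 3.38 (adjusted p = 0.00504, 0.08 without SEZ_CD24 replicate 2).

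Oligodendrocyte genes went the other way. Of 11 markers 6 were higher in the double-positive sort and none lower (median 1.97), and 9 were higher without SEZ_CD24 replicate 1. Other settings gave 3 higher and 1 lower with equal array medians, 3 higher and 0 lower with values under 10 set to 10 or without SEZ_GFPprom replicate 1, 2 or 4 or SEZ_Prom replicate 1 or 2, 2 higher and 0 lower in a fit of the 2 groups alone and 0 higher and 0 lower without SEZ_CD24 replicate 2. Their summed intensity was 11390 to 19055 in the SEZ_GFPprom arrays and 12624 and 6577 in SEZ_CD24 replicates 1 and 2, so SEZ_CD24 replicate 1 lay within the range of the double-positive arrays. Ermn, a cytoskeletal protein of myelinating cells, stood at 393, 423, 136 and 430 in the SEZ_GFPprom arrays and 51 and 33 in the SEZ_CD24 arrays (2.94, adjusted p = 0.00681, 0.0799 without SEZ_CD24 replicate 2). None of 11 oligodendrocyte progenitor markers passed limma's test (2 with an unadjusted p under 0.05).

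Of 13 endothelial markers 1 was higher (7.69%, near the 8.98% of all genes). This was the glucose transporter Slc2a1, at 1962, 1512, 1066 and 1731 in the SEZ_GFPprom arrays and 278 and 101 in the SEZ_CD24 arrays (3.19, adjusted p = 0.000293). The list's sums were 1458 to 2458 in the SEZ_GFPprom arrays, most of it Slc2a1, and 736 and 440 in SEZ_CD24 replicates 1 and 2. In 5 of the 13 genes both group means lay under an intensity of 10. Of 12 mural cell markers 3 were higher (25%, against 8.98% of all genes). These were the smooth muscle actin Acta2 (4.77, adjusted p = 2.51e-05, 0.759 with shared-sequence probe sets removed), Tagln, which binds actin (2.18, adjusted p = 0.0012) and the receptor Pdgfrb (2.67, adjusted p = 0.0071, 0.103 without SEZ_CD24 replicate 2). The Acta2 probe set read after that removal lay near the background, at mean log2 levels of 3.28 in SEZ_GFPprom and 3.16 in SEZ_CD24. The part that microglia, erythroid, choroid plexus, oligodendrocyte, endothelial or mural cells had in the other differences was not tested.

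**Figure D4:**
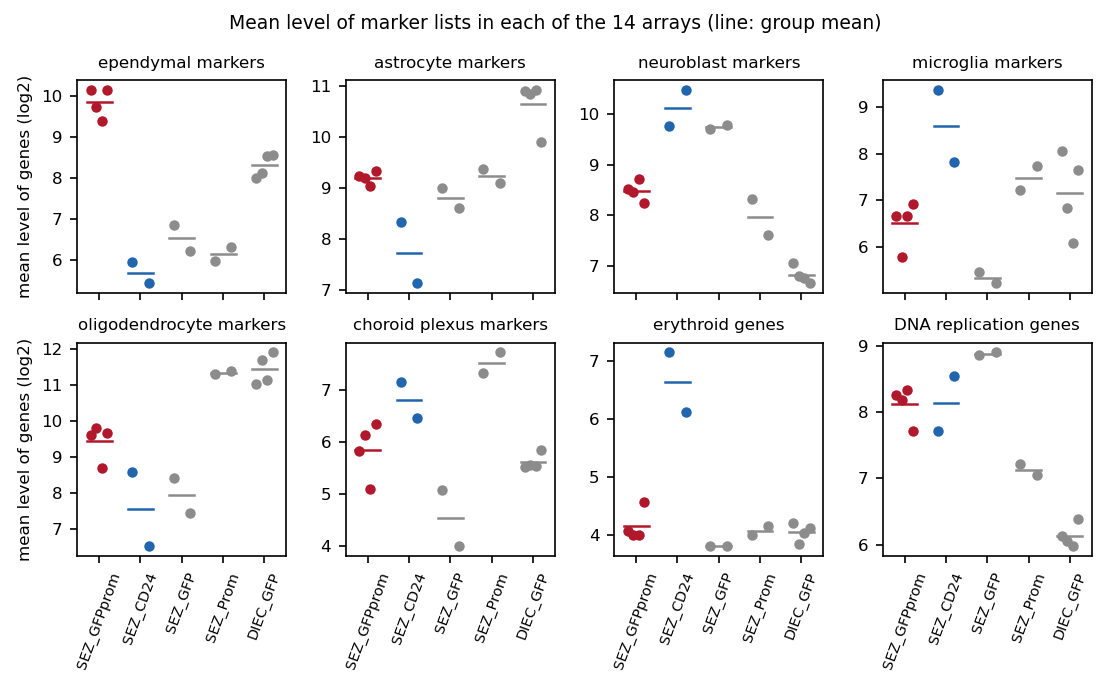
Mean log2 level of the measured genes of 8 lists in each of the 14 arrays, by group, with a line at each group mean; SEZ_GFPprom is red, SEZ_CD24 blue and the groups outside this comparison grey. The ependymal markers averaged 9.86 in SEZ_GFPprom and 5.70 in SEZ_CD24, the neuroblast markers 8.49 and 10.12, the microglia markers 6.50 and 8.60 and the DNA replication genes 8.13 and 8.13. For the DNA replication genes the 2 SEZ_CD24 arrays lay apart, at 7.71 and 8.55.

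Signalling pathways of the niche were read from their ligands to their targets, and shares of higher and lower genes stand against 8.98% and 4.74% of all genes. Of 25 Notch genes, 4 were higher and 2 lower (16% and 8%, median 0.32, or -0.04 with equal array medians). They were 2 higher and 0 lower in a fit of the 2 groups alone and 2 higher and 1 lower without SEZ_CD24 replicate 2. The receptor Notch2 was higher, and so were the target genes Hey1, at 154, 250, 174 and 245 in the SEZ_GFPprom arrays and 45 and 70 in the SEZ_CD24 arrays (1.84, SE 0.34, adjusted p = 0.00443), Hes5 (1.63, adjusted p = 0.0154, 0.163 without SEZ_CD24 replicate 2, 0.0752 with shared-sequence probe sets removed and 0.103 in a fit of the 2 groups alone) and Hes1 (1.54, adjusted p = 0.0309, 0.0526 without SEZ_CD24 replicate 1, 0.255 without SEZ_CD24 replicate 2 and up to 0.144 under 5 other alternatives (among them leaving out SEZ_GFPprom replicate 2)). The lower ones were Mfng, which modifies Notch receptors (-1.52, adjusted p = 0.0169, 0.181 without SEZ_CD24 replicate 2 and 0.0836 in a fit of the 2 groups alone), and the Notch inhibitor Numb (-1.60, adjusted p = 0.0313, 0.262 without SEZ_CD24 replicate 1 and up to 0.147 under 5 other alternatives (among them leaving out SEZ_GFPprom replicate 4)). Of 28 BMP genes 4 were higher (14.3%) and none lower (median 0.29). There were 3 higher and 3 lower with equal array medians (median -0.07). The ligand Bmp6 stood at 364, 330, 254 and 489 in the SEZ_GFPprom arrays and 29 and 40 in the SEZ_CD24 arrays (3.36, SE 0.42, adjusted p = 0.000412). Bambi, a decoy receptor, stood at 391, 226, 241 and 235 in the SEZ_GFPprom arrays and 81 and 71 in the SEZ_CD24 arrays (1.81, SE 0.29, adjusted p = 0.00194), and besides Id3 the protease Bmp1 was higher (1.23, adjusted p = 0.0212, 0.173 without SEZ_CD24 replicate 1, 0.0826 with equal array medians and 0.05 for the mean of its probe sets).

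Of 27 EGF and FGF genes 4 were higher and 3 lower (14.8% and 11.1%, median 0.31). These numbers became 1 higher and 1 lower without SEZ_CD24 replicate 2. The ligand Hbegf stood at 196, 138, 126 and 301 in the SEZ_GFPprom arrays and 34 and 41 in the SEZ_CD24 arrays (2.26, SE 0.38, adjusted p = 0.00303). The receptors Fgfr1 (1.38, adjusted p = 0.0106, 0.0516 without SEZ_CD24 replicate 1, 0.0774 without SEZ_CD24 replicate 2, 0.0779 for the mean of its probe sets and 0.45 with shared-sequence probe sets removed) and Fgfr3 (1.51, adjusted p = 0.0198, 0.239 without SEZ_CD24 replicate 2 and 0.111 in a fit of the 2 groups alone) and the feedback inhibitor Spry2 (1.58, adjusted p = 0.0187, 0.112 without SEZ_CD24 replicate 1 and 0.076 without SEZ_CD24 replicate 2) were higher. Dusp6 and Egf (-1.42, adjusted p = 0.0331, 0.288 without SEZ_CD24 replicate 1 and up to 0.0822 under 4 other alternatives (among them leaving out SEZ_GFPprom replicate 2 or SEZ_GFPprom replicate 3)) were among the lower ones. Of 13 hedgehog genes 3 were higher and 1 lower (23.1% and 7.69%, median 0.60). The coreceptor Gas1 stood at 1055, 860, 822 and 959 in the SEZ_GFPprom arrays and 254 and 247 in the SEZ_CD24 arrays (1.88, SE 0.18, adjusted p = 6.73e-05), and another coreceptor, Cdon, was lower (-1.47, adjusted p = 0.0259, 0.251 without SEZ_CD24 replicate 2 and up to 0.0924 under 3 other alternatives (among them leaving out SEZ_GFPprom replicate 4)).

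Of 27 Wnt genes 5 were higher and 1 lower (18.5% and 3.7%, median 0.45). The counts were 2 higher and 0 lower without SEZ_CD24 replicate 2. The ligand Wnt4 stood at 1734, 1179, 764 and 1450 in the SEZ_GFPprom arrays and 114 and 34 in the SEZ_CD24 arrays (4.30, SE 0.50, adjusted p = 0.000249), with every double-positive array above both CD24 arrays. The receptors Fzd6 (2.82, adjusted p = 0.00409, 0.051 without SEZ_CD24 replicate 2), Fzd5 (2.46, adjusted p = 0.00696, 0.0577 without SEZ_CD24 replicate 2) and Fzd1 (2.02, adjusted p = 0.0202, 0.0963 without SEZ_CD24 replicate 1, 0.11 without SEZ_CD24 replicate 2 and 0.063 in a fit of the 2 groups alone) and the secreted protein Dkk3 (1.86, adjusted p = 0.00532, 0.0815 without SEZ_CD24 replicate 2) were higher. Ctnnb1, the beta-catenin gene, was lower (-0.86, adjusted p = 0.0162, 0.152 without SEZ_CD24 replicate 2). Of 19 planar cell polarity genes, which orient cilia within the ependymal sheet, 3 were higher and 2 lower (15.8% and 10.5%). Within the Celsr family of cadherins Celsr1 was higher, at 232, 155, 267 and 253 in the SEZ_GFPprom arrays and 37 and 28 in the SEZ_CD24 arrays (2.79, SE 0.31, adjusted p = 0.000187), and Celsr3 lower as given above.

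Of 26 respiratory chain genes 9 were higher (34.6%, against 8.98% of all genes) and none lower (median 0.73). This became 3 higher and 2 lower with equal array medians and 3 higher and 0 lower without SEZ_CD24 replicate 2. The complex I subunits Ndufb5 (2.05, SE 0.29, adjusted p = 0.000948), Ndufa1 (1.81, adjusted p = 0.0015) and Ndufv2 (1.18, adjusted p = 0.00192) were higher. Of 21 fatty acid oxidation genes 7 were higher (33.3%) and none lower (median 0.69). The count was 2 with equal array medians or without SEZ_CD24 replicate 2, 3 in a fit of the 2 groups alone and 4 without SEZ_CD24 replicate 1. Eci1, an isomerase of that pathway, stood at 1050, 758, 746 and 742 in the SEZ_GFPprom arrays and 197 and 102 in the SEZ_CD24 arrays (2.52, SE 0.40, adjusted p = 0.002), and Hadh differed by 1.03 (adjusted p = 0.00769, 0.0527 without SEZ_CD24 replicate 2 and up to 0.892 under 4 other alternatives), and by -0.12 (adjusted p = 0.892) with shared-sequence probe sets removed.

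Of 22 ribosomal protein genes 5 were higher (22.7%) and none lower (median 0.63). With other settings there were 1 higher and 2 lower with equal array medians, 1 higher and 0 lower without SEZ_CD24 replicate 2, 3 higher and 0 lower without SEZ_GFP replicate 1 or 2 or SEZ_GFPprom replicate 4 and 2 higher and 0 lower without SEZ_GFPprom replicate 2 or 3. Rpl14 differed by 1.56 (adjusted p = 0.0177, 0.148 without SEZ_CD24 replicate 1). Rpl22, counted as higher at 0.82, had dimmer probe sets that disagreed. They differed by -1.40 (adjusted p = 0.023 in limma's fit of all probe sets) and 1.16 (adjusted p = 0.0161 in the same fit). Of 17 glycolysis genes 4 were higher (23.5%) and 1 lower (median -0.04). Counts were 2 higher and 1 lower with equal array medians or with shared-sequence probe sets removed and 2 higher and 0 lower in a fit of the 2 groups alone or without SEZ_CD24 replicate 2. Aldoa was higher by 1.55 (SE 0.27, adjusted p = 0.00315). In the cholesterol synthesis list the share of lower genes was 5.26%, near the 4.74% of all genes. Of 19 cholesterol synthesis genes only Cyp51 passed, lower at -0.99 (adjusted p = 0.0198, 0.0691 without SEZ_CD24 replicate 1 and 0.132 without SEZ_CD24 replicate 2).

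Matrix and junction genes also differed. Of 35 extracellular matrix genes 10 were higher (28.6%) and 2 lower (median 0.70). They came to 5 higher and 2 lower in a fit of the 2 groups alone and 4 higher and 1 lower without SEZ_CD24 replicate 2. Besides Thbs4, the laminin chain Lamb2 stood at 151, 253, 139 and 92 in the SEZ_GFPprom arrays and 20 and 22 in the SEZ_CD24 arrays (2.83, SE 0.44, adjusted p = 0.00169), and the basement membrane collagen Col4a2 (2.08, adjusted p = 0.00559, 0.0597 without SEZ_CD24 replicate 2) and Timp4, an inhibitor of matrix proteases (2.52, adjusted p = 0.00724, 0.0813 without SEZ_CD24 replicate 2 and 0.0646 in a fit of the 2 groups alone), were higher. Vcan, a proteoglycan, was lower, at 92, 93, 59 and 63 in the SEZ_GFPprom arrays and 386 and 493 in the SEZ_CD24 arrays (-2.54, SE 0.36, adjusted p = 0.000992). Of 29 junction genes 8 were higher (27.6%) and 1 lower (median 0.29). The numbers were 6 higher and 4 lower with equal array medians, 5 higher and 1 lower in a fit of the 2 groups alone or without SEZ_CD24 replicate 1 and 4 higher and 0 lower without SEZ_CD24 replicate 2. The desmosomal cadherin Dsg2 stood at 715, 531, 309 and 759 in the SEZ_GFPprom arrays and 20 and 35 in the SEZ_CD24 arrays (4.37, SE 0.40, adjusted p = 4.88e-05), and its partner Pkp2 (2.59, adjusted p = 0.00241, 0.0878 with shared-sequence probe sets removed) and the tight junction protein Cldn10 (1.77, adjusted p = 0.0112, 0.127 without SEZ_CD24 replicate 2) were higher.

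**Figure D5:**
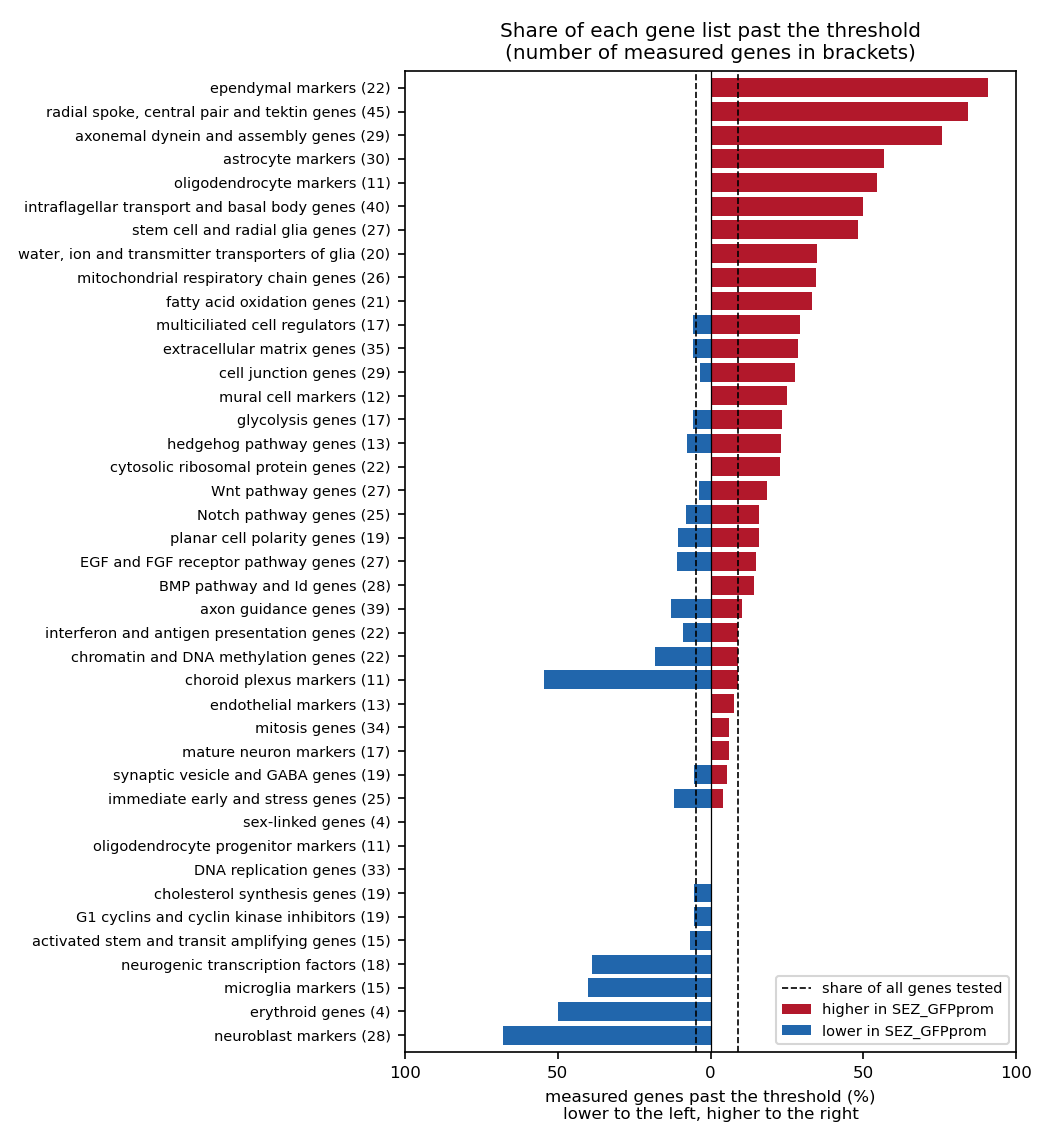
Percentage of the measured genes of each of 41 lists called higher (red, to the right) or lower (blue, to the left) in SEZ_GFPprom, with dashed lines at the shares of all genes, 8.98% and 4.74%. Higher shares reach 90.9% for the ependymal markers, and lower shares reach 67.9% for the neuroblast markers.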

How the data were processed

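Per the labels' protocols, column-purified, DNase-treated RNA of the sorted cells went through a 2-cycle amplification with biotin labelling before hybridization to Affymetrix mouse arrays. The authors deposited intensity values made by RMA, per the submitters' processing notes, whose version is not given in the sources used here. The planned test assumed log2 values. The deposited ones were linear whole numbers, and they were put on the log2 scale with no pseudocount added. Arrays have no read depth, and their number limits the precision.

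Of 45101 probe sets, 64 were controls, 932 had several symbols and 9160 none, and these were left out. The other 34945 gave 18193 genes, each read from its brightest probe set (by the mean of all 14 arrays). The genes were fitted with limma 3.58.1 in R 4.3.3 (lmFit, contrasts.fit, eBayes) over the 5 groups without covariates (9 residual and 2.627 prior degrees of freedom), with two-sided p adjusted by the Benjamini-Hochberg method over all genes. On simulated data with 200 of 18193 genes changed, the fit recovered 34.3%, 55.4% and 89.3% of changes of 1, 2 and 3 log2 units, and 8.73% of its calls were unchanged genes. The simulation had independent noise of equal spread in all groups and fewer changed genes than were called here. Its shares therefore need not hold for this comparison.

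Named genes were the sorting genes, the 12 highest and 12 lowest differences among called genes with groups that did not overlap, up to 6 genes per list with the smallest adjusted p and a panel of lineage genes, 253 in all, of which the text prints a part. The 41 lists (85 members not analysed here) overlap. The comparison, lists and members were chosen with earlier results of these data known. Of 104 called named genes with several probe sets, all probe sets were called in the same direction in 21. In 1 gene, Rpl22, a probe set was called in the opposite direction. Promoters of RefSeq (GRCm38.p6) were searched for 10 motifs. The alternatives were 3 other scalings, filters on dim genes, values under 10 set to 10, averaging all probe sets of a gene, leaving out probe sets of shared sequence, other sets of groups, a replicate block, the 3' to 5' ratio as a covariate, array weights, a trend and robust prior, and leaving out each array.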

Additional observations from a re-analysis of the deposited data

Results flagged for a closer look

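In 13 of 295 values tested, 1 of the 4 SEZ_GFPprom arrays lay far from the other 3, and chance gives about 1 in 20. All values here are log2 levels. Replicate 3 was low in Gja1 (11.71), Ermn (7.09), Egfl7 (6.43) and Tm7sf2 (5.58), and high in the mean of the planar cell polarity genes (6.83). Replicate 1 was high in Bambi (8.61) and Eci1 (10.04). Replicate 2 was low in Pbx3 (8.16) and in Xist (6.98), the RNA that silences the inactive X chromosome in female cells. Replicate 4 was low in H2-D1 (7.23) and Mcm6 (8.26), and high in Slc4a1 (5.55) and in the mean of the erythroid genes (4.57). The calls of Gja1, Bambi and Eci1 held in all 28 alternatives, those of leaving out each array included.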

How the results depend on the processing

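The count of 2496 genes was 1580 in a fit of the 2 groups alone, and 1102 to 2649 with an array left out, the lowest without SEZ_CD24 replicate 2, where the lone CD24 array was assumed to vary like the other groups. The other alternatives gave 1748 to 3029. In the main fit too, all 5 groups shared an estimate of spread, so the CD24 arrays were assumed to vary like the rest. Higher and lower genes numbered 1324 and 1137 after quantile normalization and 1071 and 1958 with equal array medians, which moved the median of all genes from 0.10 to -0.12. Of 182 called named genes, 77 kept their call under each of the 28 alternatives, 83 lost it without SEZ_CD24 replicate 2, 45 without replicate 1, 53 in the fit of the 2 groups alone and 26 with equal medians. Among the called named genes, only Hadh (-0.12, adjusted p = 0.892) and Slc15a2 (-0.41, adjusted p = 0.542) changed sign, both without probe sets of shared sequence, and the cause was not tested. Same-numbered arrays of the 2 groups deviated from their group means at r = -0.05 and 0.00. With only 2 CD24 arrays their deviations are mirror images, so these values cannot tell whether equal replicate numbers pair the arrays. With a replicate block 1748 genes passed, and 32 named genes lost the call. Signal near the background limits the genes at an intensity of 10 or less, and with values under 10 set to 10 the calls numbered 2195.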

Other observations

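Of 25 immediate early and stress genes 3 were lower (12%, against 4.74% of all genes) and 1, Gadd45b, higher (median -0.90). The counts were 0 higher and 7 lower with equal array medians and 0 higher and 5 lower without DIEC_GFP replicate 3. Gadd45b (2.10, adjusted p = 0.0467) lost its call in 20 of the 28 alternatives. Ier2 stood at 459, 302, 198 and 414 in the SEZ_GFPprom arrays and 1499 and 2338 in the SEZ_CD24 arrays (-2.52, adjusted p = 0.0138, 0.134 without SEZ_CD24 replicate 2), with both CD24 arrays above every double-positive array. Of 22 interferon and antigen presentation genes 2 were higher (9.09%, near the 8.98% of all genes), Ifitm3 and Ifit3 (1.32, adjusted p = 0.0208, 0.0754 without SEZ_CD24 replicate 1, 0.137 without SEZ_CD24 replicate 2 and 0.101 in a fit of the 2 groups alone), and 2 lower (9.09%), Rsad2 and the class I antigen H2-D1 (-1.71, adjusted p = 0.0123, 0.12 without SEZ_CD24 replicate 1 and 0.081 in a fit of the 2 groups alone).

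Of 22 chromatin genes 4 were lower and 2 higher (18.2% and 9.09%, median -0.84). They became 1 higher and 8 lower with equal array medians, 1 higher and 1 lower without SEZ_CD24 replicate 1 and 0 higher and 2 lower without SEZ_CD24 replicate 2. The Polycomb gene Bmi1 stood at 349, 356, 330 and 310 in the SEZ_GFPprom arrays and 665 and 1038 in the SEZ_CD24 arrays (-1.31, adjusted p = 0.00556, 0.0833 without SEZ_CD24 replicate 2), and another Polycomb gene, Ring1, was higher, at 141, 206, 117 and 141 in the SEZ_GFPprom arrays and 58 and 35 in the SEZ_CD24 arrays (1.72, adjusted p = 0.00314, 0.0507 without SEZ_CD24 replicate 2). The groups did not overlap in either gene. Tet3, an enzyme that oxidizes methylated cytosine, differed by -1.40 (adjusted p = 0.0145, 0.0805 without SEZ_CD24 replicate 1 and 0.0783 without SEZ_CD24 replicate 2). Of 19 synaptic vesicle and GABA genes 1 was higher, the receptor subunit Gabrb1 (1.76, adjusted p = 0.0341, 0.394 without SEZ_CD24 replicate 2 and up to 0.144 under 7 other alternatives (among them leaving out SEZ_GFPprom replicate 3 or SEZ_GFPprom replicate 4)), and 1 lower, the GABA-making enzyme Gad2 (-1.39, adjusted p = 0.036, 0.0995 without SEZ_CD24 replicate 1, 0.22 without SEZ_CD24 replicate 2 and up to 0.111 under 8 other alternatives (among them leaving out SEZ_GFP replicate 1, SEZ_GFP replicate 2, SEZ_GFPprom replicate 1, SEZ_GFPprom replicate 2 or SEZ_GFPprom replicate 4)). The 1 higher and the 1 lower of these 19 genes made 5.26% each, against 8.98% and 4.74% of all genes. None of 4 sex-linked genes passed limma's test, nor an unadjusted p under 0.05.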
